A study of Mus musculus with 8 samples.

Results

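RNA of mouse embryonic stem cells carrying the 2C::GFP reporter and grown with a combination called SA was compared with RNA of wild-type mouse embryonic stem cells, gene by gene. The comparison used all genes with enough counts to be tested, 20608 of 55573 in the deposited table, and 4 of the 8 libraries of the series. The first group, 2C::GFP+/SA (2 libraries), has the genotype 2C::GFP+ and was kept in KnockOut medium with 20% KnockOut serum replacement, 2 µM SGC0946, 2 µM AS8351 and 10 ng/ml IL6/sIL-6R. SGC0946 is an inhibitor of DOT1L, the enzyme that methylates lysine 79 of histone H3, and AS8351 has been described as an inhibitor of the histone H3 lysine 4 demethylase KDM5B. IL6 with its soluble receptor stood in place of LIF, the cytokine that normally keeps these cells undifferentiated. The second group, mESC (2 libraries), is wild type and untreated. The labels allow 2 media for it, N2B27 with 10 ng/ml LIF, 1 µM PD03 (a MEK inhibitor) and 3 µM of the GSK3 inhibitor CHIR, or KnockOut serum replacement medium with LIF, and do not say which was used. Genotype, compounds, cytokine and possibly medium therefore differ together between the groups and cannot be told apart. The labels give neither the promoter behind the reporter nor whether cells were sorted for it, and do not say that replicates were separate cultures, so p-values measure the spread between these libraries, which may be technical. Libraries of untreated 2C::GFP+ and of 2C::GFP+/SGC (2 each) entered the fit but not the contrast. They helped to estimate that spread, and they also took part in the choice of tested genes and in the scaling. The 2C::GFP+/SGC cells were kept with 20% KnockOut serum replacement, 2 µM SGC0946 and 10 ng/ml LIF. Untreated 2C::GFP+ cells had 10 ng/ml LIF.

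A small share of mouse embryonic stem cells passes in and out of a state that resembles the 2-cell embryo and is called 2C-like. In that state the homeodomain factor DUX activates genes of the first wave of embryonic transcription, among them the Zscan4 cluster, and with them MERVL retroelements. Many of these genes lie in tandem arrays of near-identical copies. Pluripotency in the bulk of the cells rests on Oct4 (Pou5f1), Sox2 and Nanog, held up by LIF signalling through STAT3, by Wnt signalling and by low ERK activity.

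Each group had a deep first library and a shallower second one, with total counts of 96895327 and 12299931 in 2C::GFP+/SA and of 145810034 and 19544870 in mESC. Replicates correlated at Pearson's r of 0.985 in 2C::GFP+/SA and 0.993 in mESC (across tested genes, log2 CPM), and no pair of replicates agreed within sampling noise. The 2 libraries of 2C::GFP+/SA lay further apart than those of mESC in the genes of the 2C-like state, where replicate 1 was the higher. Mitochondrial genes took 2.66% and 2.39% of counts in 2C::GFP+/SA and 2.00% and 2.11% in mESC. Levels below are scaled counts (CPM) after TMM scaling unless TPM is named, differences are log2 fold changes of 2C::GFP+/SA over mESC with their standard errors (SE), and a gene was called changed at an adjusted p under 0.05 (edgeR's quasi-likelihood test, Benjamini-Hochberg over all tested genes).

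Of the 20608 tested genes, 9288 were called (45.1%). The higher ones in 2C::GFP+/SA numbered 5143 (25.0%) and the lower ones 4145 (20.1%), and the median of all tested genes was 0.03. Fitted rises were larger than fitted falls. Fitted changes of at least 10-fold were called for 2396 genes that rose and 169 that fell, and changes of at least 100-fold for 1187 and 14. Of the genes called higher, 797 had no mESC count, so their fitted folds have no finite measured value. Among tested genes, 844 had no count in mESC and 29 none in 2C::GFP+/SA, so the filter fixes part of this contrast. With a mESC count, 3383 genes rose at least 2-fold, while 1994 genes in all fell at least 2-fold. The genes called higher took 29.5% and 25.7% of all counts in the 2C::GFP+/SA libraries, against 11.1% and 11.1% in the mESC libraries. The genes called lower took 21.3% and 22.6% in 2C::GFP+/SA, against 37.9% and 38.6% in mESC. Their 95% Wilson intervals, which cover counting error only, were at most as wide as 25.71% to 25.76% for the higher and 22.55% to 22.60% for the lower genes in 2C::GFP+/SA. Both classes were picked by the same comparison, so the direction of these share differences is fixed by the choice and only their size is a description. With such a share of all genes called, a call on its own says little about a gene or list, and the sizes of the changes carry the description.

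**Figure D1:**
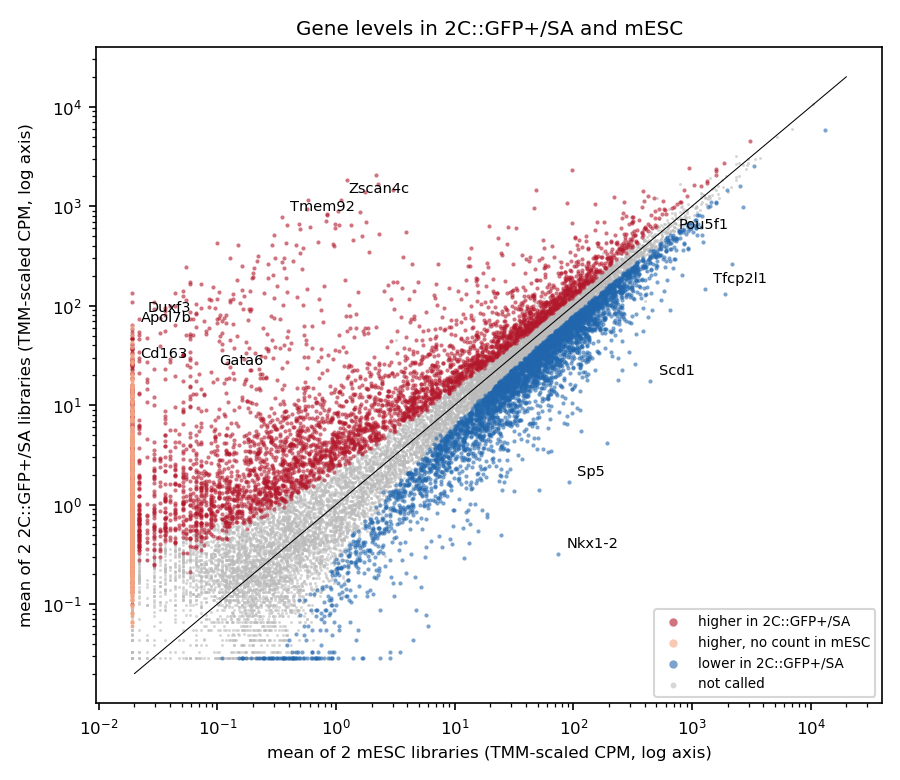
Mean level of each tested gene in the 2 libraries of 2C::GFP+/SA (vertical, TMM-scaled CPM, log axis) against the 2 libraries of mESC (horizontal, same scale), with genes called higher in red, those of them without any mESC count in orange, genes called lower in blue and other genes in grey; means under that of 3 counts over a group are drawn at that level. A cloud of genes reaches far above the diagonal toward the left, such as Zscan4c with a mean of 1168 CPM in 2C::GFP+/SA and 1.09 CPM in mESC, while few genes lie as far below it.

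The 3 lists of genes of the 2C-like state had the highest medians of the 25 lists, and the factor that starts the state rose with them. Duxf3 (ENSMUSG00000075046, GRCm38 chromosome 10, 58229979 to 58232675, a protein-coding copy of Dux) had 71.6 and 76.6 CPM in 2C::GFP+/SA, against 0.0437 and 0 CPM in mESC. The groups were far apart and the replicates of 2C::GFP+/SA close together, at a log2 difference of 10.87 ± 0.39 (SE, with an adjusted p of 1.13e-09). Of the 31-base words in the transcripts of Duxf3, 60.3% also occur in another gene, so the value of this single copy is uncertain. In a bulk library, more cells in a state and more RNA per cell cannot be told apart. Dppa2, a DNA-binding protein that acts upstream of Dux, had 676.8 and 518.3 CPM in 2C::GFP+/SA and 34.0 and 31.9 CPM in mESC, a log2 difference of 4.18 ± 0.17 (adjusted p = 2.32e-09). Its partner Dppa4 rose less, by 1.18 ± 0.14 (adjusted p = 1.36e-05). For Dppa2 and Dppa4, 33.8% and 40.1% of these words occur in another gene. Usp7, a deubiquitinase, was the member called lower, at 496.5 and 476.5 CPM in 2C::GFP+/SA and 670.0 and 714.4 CPM in mESC. Of the 8 genes listed for DUX and its upstream regulators, 5 rose (62.5%, beside 25.0% of all genes), 1 fell and 2 were not called. Their median was 0.92, beside 0.03 over all genes.

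All 6 Zscan4 genes, zinc finger genes linked to telomere lengthening in these cells, rose (100%, beside 25.0% of all genes). Their log2 fold changes lay between 9.83 and 10.53, with a median of 10.26. Zscan4c (ENSMUSG00000054272, chromosome 7, 11005745 to 11010547) had 1699 and 636.9 CPM in 2C::GFP+/SA, against 0.692 and 1.49 CPM in mESC, a log2 difference of 10.35 ± 0.81 (adjusted p = 0.000417). Zscan4d, a copy on the other strand in the same cluster, had 2446 and 886.2 CPM in 2C::GFP+/SA, against 1.09 and 3.44 CPM in mESC (9.83 ± 1.00, adjusted p = 0.00155). Replicate 1 of 2C::GFP+/SA was the higher one for the whole family, by a median of 1.42 log2 units. Without that replicate the median of the family was 9.47 and all 6 genes were still called. Between 65.0% and 95.2% of the 31-base words in the transcripts of each Zscan4 gene also occur in another gene, so the split of reads among the copies is uncertain, and the sum is the safer value. The family together took 0.939% and 0.399% of all counts in 2C::GFP+/SA, against 0.000377% and 0.00111% in mESC. Per length, Zscan4d reached 3080 and 1404 TPM in 2C::GFP+/SA, where Pou5f1 had 667.0 and 809.7 TPM. In mESC the same genes had 1.53 and 5.24 TPM (Zscan4d) and 972.2 and 965.6 TPM (Pou5f1).

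The promoters of the 2 genes are shown because DUX binds a known recognition sequence in this cluster and the copies can be compared base by base. They are the 250 bases before the annotated start, 5′ to 3′ on the strand of the gene, from RefSeq (GRCm38.p6), at chr7:11005495-11005744 for Zscan4c and chr7:11166149-11166398 (minus strand) for Zscan4d. Capitals mark the match to the DUX motif, spelled here as TGATT, any 2 bases and then ATCA, and searched on both strands. In both genes the match lies on the opposite strand.
Zscan4c: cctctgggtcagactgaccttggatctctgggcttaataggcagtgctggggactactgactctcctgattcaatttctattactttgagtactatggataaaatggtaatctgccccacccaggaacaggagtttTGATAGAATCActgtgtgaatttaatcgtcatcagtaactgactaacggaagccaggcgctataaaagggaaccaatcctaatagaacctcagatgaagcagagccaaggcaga
Zscan4d: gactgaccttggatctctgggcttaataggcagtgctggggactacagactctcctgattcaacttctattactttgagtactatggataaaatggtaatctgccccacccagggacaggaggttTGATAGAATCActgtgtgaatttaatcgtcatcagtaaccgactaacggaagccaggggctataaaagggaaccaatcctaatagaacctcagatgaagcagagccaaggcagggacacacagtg
The motif is rare in windows of this length. It was found in 56 of 27025 genes with a RefSeq promoter (0.207%), in 18 of the 13220 that were tested (0.136%), in 12 of 3226 called higher (0.372%) and in 1 of 3120 called lower (0.0321%). Of the 12 genes called higher, 4 were Zscan4 genes (Zscan4b, Zscan4c, Zscan4d and Zscan4f), and the copies share most of this sequence. A match is a description of the letters in this window and says nothing about binding.

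The other tandem families of the state moved in the same way. Of 25 genes listed from the Tcstv, Usp17l, Tdpoz, Pramef and Obox families, 22 were tested. Of these, 21 rose (95.5%, beside 25.0% of all genes) and 1 fell, with a median of 9.79. With the 6 members without a count in mESC set at their lower bound, the median was 8.58. A member without counts in mESC was tested only because other libraries had counts, so these counts are a description. The member called lower, Pramef12, lost its call without any 1 of the 4 libraries (adjusted p between 0.0514 and 0.257). Tcstv3, named for its variable expression at the 2-cell stage, had 494.8 and 102.7 CPM in 2C::GFP+/SA, against 0.219 and 0.513 CPM in mESC (10.11 ± 1.37, adjusted p = 0.0048). Tcstv1 had 85.2 and 19.6 CPM in 2C::GFP+/SA, against 0.00729 and 0.154 CPM in mESC (10.83 ± 1.45, adjusted p = 0.00288). For both, replicate 1 was several times replicate 2 in 2C::GFP+/SA, and both lay far above the mESC libraries. Pramef6, a leucine-rich repeat gene of the PRAME family, had 121.5 and 64.1 CPM in 2C::GFP+/SA, against 0.0583 and 0 CPM in mESC (10.81 ± 0.51, adjusted p = 1.41e-07). Pramel7, a PRAME-like gene of the inner cell mass, had 26.7 and 20.0 CPM in 2C::GFP+/SA, against 0.0874 and 0.359 CPM in mESC (7.41 ± 0.44, adjusted p = 6.19e-08). Of the transcript words of Tcstv3 and Pramef6, 51.0% and 49.9% occur in other genes.

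Genes of the state outside these families also rose by large factors. Tmem92, which codes for a membrane protein and marks 2C-like cells (ENSMUSG00000075610, GRCm38 chromosome 11, 94777217 to 94782703), had 964.0 and 588.4 CPM in 2C::GFP+/SA, against 0.284 and 0.411 CPM in mESC (11.30 ± 0.39, adjusted p = 5.37e-08). It is largely free of copies, with 3.6% of its transcript words found elsewhere. Arg2, the mitochondrial arginase, had 167.2 and 92.4 CPM in 2C::GFP+/SA, against 0.117 and 0.154 CPM in mESC (10.03 ± 0.38, adjusted p = 5.63e-09), with the exons of a neighbour on the other strand over 20.0% of its own. Zfp352, a zinc finger gene of the 2-cell embryo, had 187.1 and 79.8 CPM in 2C::GFP+/SA, against 0.0219 and 0 CPM in mESC. These mESC libraries held 3 counts together, which gives a ratio of 9076 with a 95% counting interval from 3105 to 44015 (adjusted p = 5.89e-05). Kdm4dl, a relative of a histone demethylase gene, had 191.7 and 90.3 CPM in 2C::GFP+/SA, against 0 and 0.103 CPM in mESC. There 2 counts give a ratio of 14034 with an interval from 3884 to 115888 (adjusted p = 7.29e-05). Of the transcript words of Kdm4dl, 43.7% occur in another gene. Of 19 genes listed, 18 were tested, of which 15 rose (83.3%, beside 25.0% of all genes), 1 fell and 2 were not called. The 1 that fell, Chit1, a chitinase gene, lost its call without replicate 1 of 2C::GFP+/SA (adjusted p = 0.1) or replicate 2 of mESC (0.143). Their median was 10.20, or 9.87 with the gene without mESC counts at its bound. Together with the Zscan4 genes and the tandem families, this list took 1.79% and 0.811% of all counts in 2C::GFP+/SA (95% Wilson intervals 1.784% to 1.790% and 0.8056% to 0.8156%), against 0.0201% and 0.0244% in mESC (0.01990% to 0.02036% and 0.02368% to 0.02506%).

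**Figure D2:**
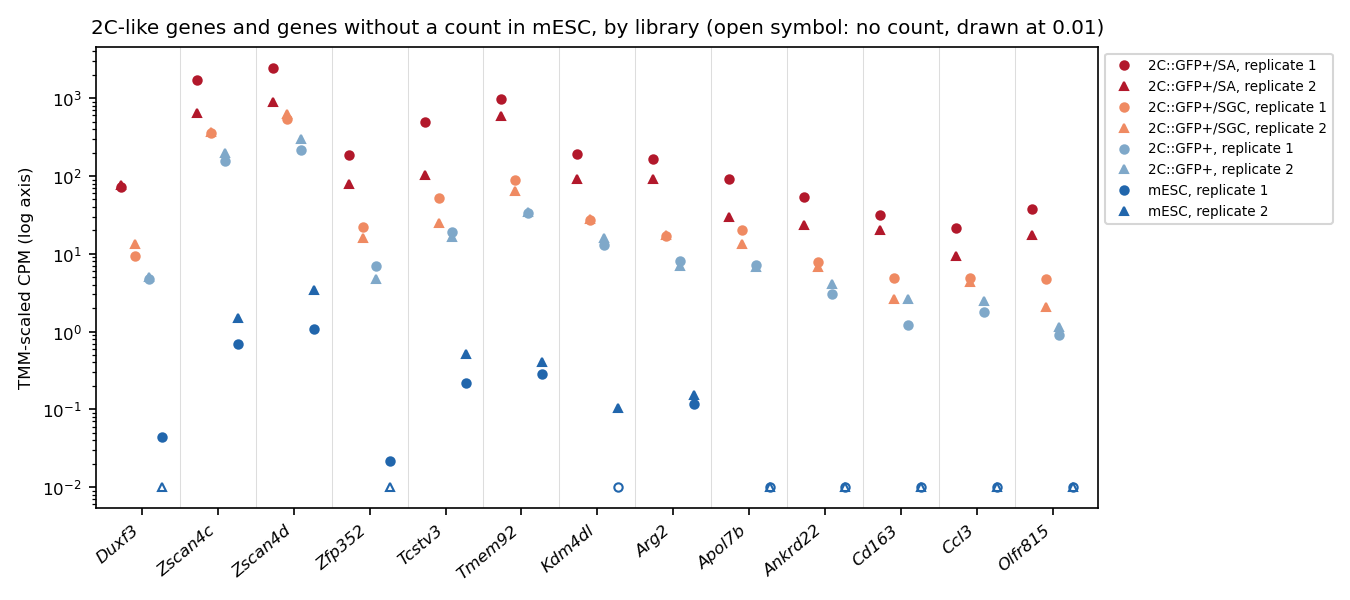
Level of 13 genes (TMM-scaled CPM, log axis) in each of the 8 libraries, with 2C::GFP+/SA at the left and mESC at the right of each gene, circles for replicate 1, triangles for replicate 2 and open symbols for libraries without a count, drawn at 0.01. Both 2C::GFP+/SA libraries lie above every other library for each gene, with Tmem92 at 964.0 and 588.4 CPM, and the mESC libraries lie lowest or have no count.

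**Figure D3:**
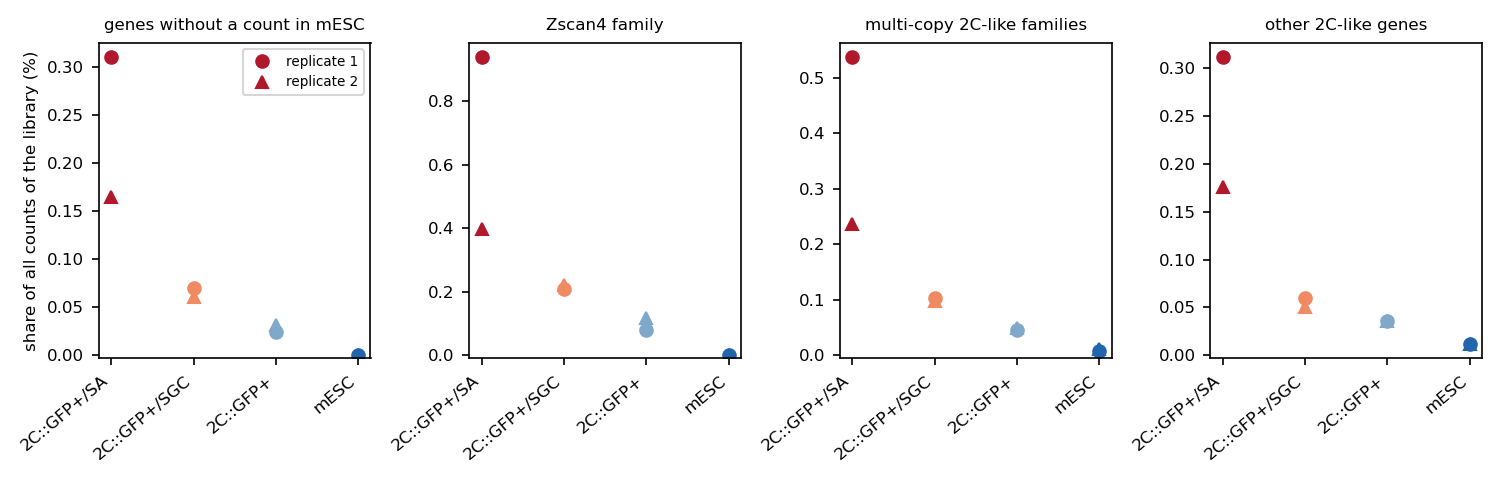
Share of all counts of each library (percent) taken by genes without a count in mESC and by 3 lists of genes of the 2C-like state, with groups along the horizontal axis, circles for replicate 1 and triangles for replicate 2. The 2C::GFP+/SA libraries are highest in every panel and replicate 1 lies above replicate 2, as for the Zscan4 family at 0.939% and 0.399% in 2C::GFP+/SA, against 0.000377% and 0.00111% in mESC.

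A large group of genes had counts in 2C::GFP+/SA and none in either mESC library. In the whole table, 1561 genes had no mESC count and a count in both 2C::GFP+/SA libraries, while 313 had no count in 2C::GFP+/SA and a count in both mESC libraries. Of the tested genes, 844 had no count in mESC and 797 of these were called higher. A gene with no mESC count passes the filter only through counts elsewhere, so that share is fixed in part by the filter and is no evidence. Of the 797, 368 are not predicted models, 322 averaged at least 1 CPM in 2C::GFP+/SA, and 57 averaged at least 10 CPM. All genes without a count in mESC together took 0.31% and 0.165% of counts in 2C::GFP+/SA. The number called depends on single libraries and on the filter, which was set anew for each choice of libraries. It was 630 with only the 4 libraries compared and 784 without untreated 2C::GFP+. Leaving out 1 library moved it further in both directions, as given below.

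The leading ones by level were genes of several kinds. Folds are lower bounds against 3 counts over the mESC group, or 0.0191 CPM. Apol7b (chromosome 15, 77422209 to 77447492), an apolipoprotein L gene, had 90.4 and 29.3 CPM in 2C::GFP+/SA, at least 3127-fold higher than in mESC (adjusted p = 0.00117), with 82.9% of its transcript words shared with other genes. Fam90a1a had 63.2 and 22.9 CPM in 2C::GFP+/SA, at least 2248-fold higher (adjusted p = 0.000111). Ankrd22, an ankyrin repeat gene, had 53.9 and 23.3 CPM in 2C::GFP+/SA, at least 2018-fold higher (adjusted p = 1.15e-06), but 39.9% of its exon bases overlap Lipm on the other strand.

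Several are receptors or secreted factors of other tissues. Cd163 (ENSMUSG00000008845, chromosome 6, 124304656 to 124330527), the haemoglobin scavenger receptor of macrophages, had 31.1 and 20.5 CPM in 2C::GFP+/SA, at least 1347-fold higher than in mESC (adjusted p = 8.57e-07). Ccl3, a chemokine of activated macrophages, had 21.4 and 9.4 CPM in 2C::GFP+/SA, at least 803.4-fold higher (adjusted p = 2.42e-07). Almost none of the transcript words of either are found in another gene. Of 8 other macrophage markers listed, Ptprc, Adgre1, Csf1r, Lyz2 and Aif1 had too few counts to be tested, with 0 counts each in replicate 2 of 2C::GFP+/SA. Cd68, a lysosomal membrane protein, was the 1 called, with 23.8 and 27.4 CPM in 2C::GFP+/SA and 15.4 and 11.2 CPM in mESC (0.93 ± 0.23, adjusted p = 0.00427), and 2 were called higher without replicate 1 of mESC. Cd68 made up most of the summed level of the list, which was 25.5 and 28.3 CPM in 2C::GFP+/SA and 16.1 and 11.2 CPM in mESC. Slc34a2, a sodium phosphate cotransporter, had 19.5 and 12.6 CPM in 2C::GFP+/SA (at least 840.4-fold higher, adjusted p = 1.47e-07). Drd3, a dopamine receptor, had 19.7 and 10.9 CPM in 2C::GFP+/SA (at least 801.3-fold higher, adjusted p = 1.75e-07). For Cd163 the promoter is shown next to that of Abcb5, a drug transporter gene chosen after its values were seen, which had 150.4 and 52.7 CPM in 2C::GFP+/SA, against 0.204 and 0.513 CPM in mESC. The window of Abcb5 (chr12:118966422-118966671, minus strand) holds the DUX motif, in capitals, and that of Cd163 (chr6:124304401-124304650) does not.
Abcb5: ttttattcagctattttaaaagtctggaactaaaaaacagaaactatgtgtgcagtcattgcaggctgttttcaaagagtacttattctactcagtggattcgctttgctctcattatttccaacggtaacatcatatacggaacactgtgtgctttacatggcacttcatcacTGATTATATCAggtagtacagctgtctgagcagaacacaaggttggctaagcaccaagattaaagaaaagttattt
Cd163: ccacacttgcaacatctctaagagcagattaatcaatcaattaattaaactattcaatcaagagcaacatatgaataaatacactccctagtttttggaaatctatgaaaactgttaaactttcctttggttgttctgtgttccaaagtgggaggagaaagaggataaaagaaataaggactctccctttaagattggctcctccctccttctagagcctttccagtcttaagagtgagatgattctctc
Among the genes without mESC counts that were called, 1 of 350 with a RefSeq promoter held the motif (0.286%).

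Olfactory receptor genes, which code for odorant receptors of the nose, were looked at after their values were seen. Of 75 tested, 33 had no count in mESC, where 844 of all 20608 tested genes had none (4.1%). Of the 75, 48 rose (64%, beside 25.0% of all genes) and 2 fell (2.67%, beside 20.1%). The median was 7.21, or 4.41 with genes at their bounds. The filter fixes part of these counts too, so they are a description. Olfr815 had 38.0 and 17.2 CPM in 2C::GFP+/SA (at least 1441-fold higher, adjusted p = 1.22e-05), with 55.1% of its transcript words shared. Olfr881 had 41.3 and 13.6 CPM in 2C::GFP+/SA (at least 1434-fold higher, adjusted p = 0.000596). Obox4-ps16, a pseudogene of an oocyte homeobox family, had 42.7 and 22.3 CPM in 2C::GFP+/SA (at least 1698-fold higher, adjusted p = 6.33e-07), with 91.6% of its transcript words shared. The largest rise among predicted models was that of AC133095.2, with 76.7 and 48.2 CPM in 2C::GFP+/SA (at least 3263-fold higher, adjusted p = 3.44e-09). It lies on the scaffold JH584299.1, and no transcript words were available for it, so its shared sequence could not be assessed.

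The core pluripotency factors stayed at high levels, though Sox2 fell by 1.00 log2 unit. Several factors of the naive state were lower too, Tfcp2l1 by the most among those listed. Pou5f1 (Oct4) had 524.2 and 505.7 CPM in 2C::GFP+/SA and 687.3 and 626.5 CPM in mESC, a fall of 0.35 ± 0.13 on the log2 scale (adjusted p = 0.0402). That call was lost under 11 of the alternatives, among them the removal of either mESC library (adjusted p = 0.217 and 0.0654) or either 2C::GFP+/SA library (0.0605 and 0.0791). Sox2 had 240.5 and 263.2 CPM in 2C::GFP+/SA and 471.6 and 537.4 CPM in mESC, and fell by 1.00 ± 0.13 (adjusted p = 2.99e-05). Nanog had 853.4 and 603.6 CPM in 2C::GFP+/SA and 681.9 and 738.3 CPM in mESC. The groups overlapped and no difference was called (0.04 ± 0.17, adjusted p = 0.879). Tfcp2l1, a naive pluripotency factor downstream of STAT3, had 141.1 and 151.0 CPM in 2C::GFP+/SA and 1217 and 1365 CPM in mESC, and fell by 3.14 ± 0.16 (adjusted p = 9.54e-09). The naive factors Klf4 and Esrrb fell by 1.39 ± 0.14 and 1.22 ± 0.13 (adjusted p = 4.28e-06 and 4.73e-06). Zfp42 (Rex1) fell by 0.64 ± 0.18 (adjusted p = 0.0127), a call lost without replicate 2 of 2C::GFP+/SA (0.0928) or replicate 1 of mESC (0.0826). Tdgf1 (Cripto), the co-receptor of Nodal, rose to 1082 and 1457 CPM in 2C::GFP+/SA, against 380.1 and 475.9 CPM in mESC (1.57 ± 0.16, adjusted p = 4e-06). Of the 24 factors listed, 4 rose (16.7%, beside 25.0% of all genes), 11 fell (45.8%, beside 20.1%) and 9 were not called (median -0.27). Without replicate 2 of 2C::GFP+/SA, 7 were called lower.

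Some genes of formative and primed pluripotency, the states that follow the naive one in the epiblast, rose. Pou3f1 (Oct6), a POU factor of the epiblast, had 41.9 and 68.6 CPM in 2C::GFP+/SA and 1.33 and 1.13 CPM in mESC (5.44 ± 0.34, adjusted p = 9.93e-08). Nodal, the TGF-beta family ligand of the early epiblast, had 255.9 and 356.4 CPM in 2C::GFP+/SA and 67.6 and 68.6 CPM in mESC (2.17 ± 0.16, adjusted p = 1.94e-07). Dnmt3a, a de novo DNA methyltransferase, had 223.7 and 292.8 CPM in 2C::GFP+/SA and 47.9 and 66.6 CPM in mESC (2.18 ± 0.19, adjusted p = 2.8e-06). Of 15 members, 6 rose (40%, beside 25.0% of all genes), 1 fell and 8 were not called. Their median was 0.18, close to that of all genes. The median was -0.27 without replicate 2 of mESC and 0.84 without replicate 1 of mESC, and none was called lower without replicate 1 of 2C::GFP+/SA.

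Primitive endoderm genes, which mark the extraembryonic lineage facing the blastocyst cavity, rose together. Of 17, 14 rose (82.4%, beside 25.0% of all genes), 1 fell and 2 were not called, with a median of 3.86. Gata6, the factor that starts this lineage, had 20.3 and 23.1 CPM in 2C::GFP+/SA, against 0.0729 and 0.103 CPM in mESC (8.08 ± 0.59, adjusted p = 3.47e-07). Pdgfra, its surface receptor marker, had 19.4 and 31.4 CPM in 2C::GFP+/SA and 1.65 and 0.924 CPM in mESC (4.20 ± 0.51, adjusted p = 8.91e-05). Lamb1, a laminin chain of its basement membrane, had 176.9 and 242.6 CPM in 2C::GFP+/SA and 48.6 and 66.3 CPM in mESC (1.87 ± 0.19, adjusted p = 6.46e-06). Hnf4a, a factor of the visceral endoderm, was the member called lower (-1.33 ± 0.32, adjusted p = 0.00418), a call lost without replicate 2 of mESC (0.0553), and 2 were called lower without replicate 2 of 2C::GFP+/SA. In this list replicate 2 of 2C::GFP+/SA was the higher, by a median of 0.97 log2 units, the opposite of the Zscan4 genes.

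More of the trophectoderm genes, which mark the outer layer of the blastocyst, fell than rose. Of 15 tested, 3 rose (20%, beside 25.0% of all genes), 7 fell (46.7%, beside 20.1%) and 5 were not called (median -0.79). The median was -1.42 without replicate 1 of mESC and -0.52 without replicate 2 of 2C::GFP+/SA, and changed sign to 0.40 without replicate 2 of mESC. Cdx2, a homeobox factor of this lineage, had 0.394 and 0.462 CPM in 2C::GFP+/SA and 4.47 and 8.21 CPM in mESC, and fell by 3.91 ± 0.54 (adjusted p = 6.07e-05). Tead4, the factor upstream of Cdx2, had 7.36 and 5.85 CPM in 2C::GFP+/SA and 84.9 and 81.2 CPM in mESC (-3.62 ± 0.21, adjusted p = 3.26e-08). Fgfr2, the FGF receptor of trophoblast stem cells, rose by 2.03 ± 0.43 (adjusted p = 0.00293).

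**Figure D4:**
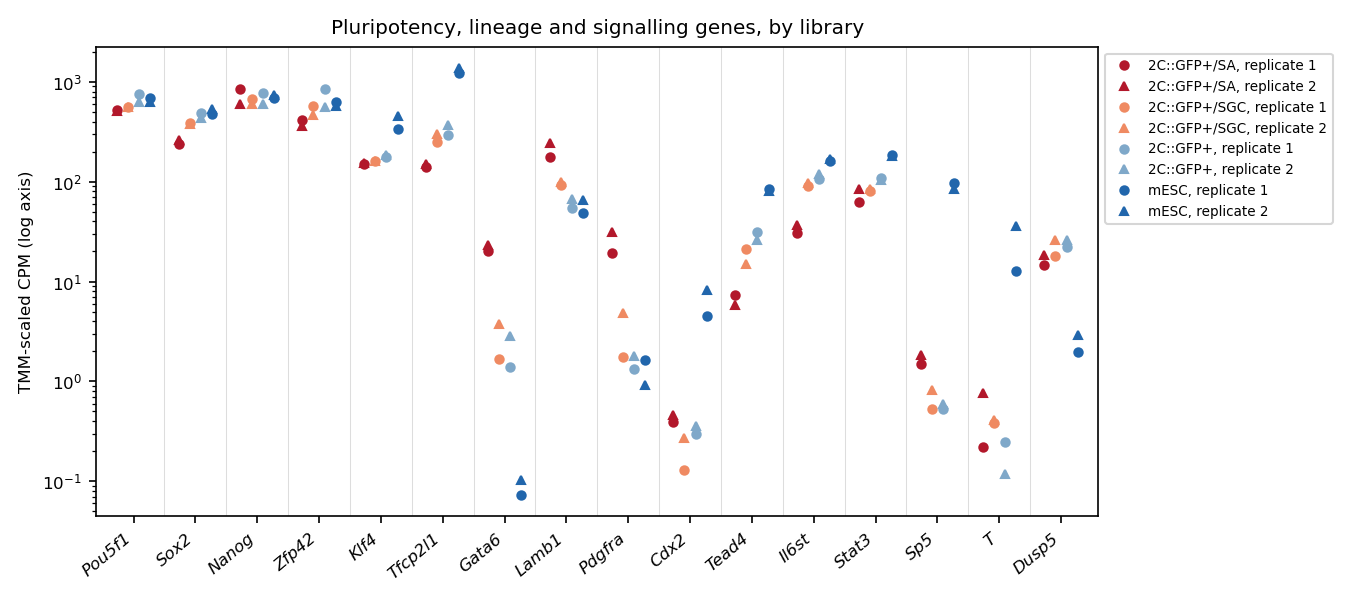
Level of 16 pluripotency, lineage and signalling genes (TMM-scaled CPM, log axis) in each of the 8 libraries, with 2C::GFP+/SA at the left and mESC at the right of each gene, circles for replicate 1 and triangles for replicate 2. Gata6 lies at 20.3 and 23.1 CPM in 2C::GFP+/SA and under 1 CPM in mESC, Tfcp2l1 and Sp5 lie lower in 2C::GFP+/SA than in mESC, and the points of Nanog overlap.

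Germ cell and piRNA pathway genes, silenced by promoter methylation in most somatic cells, rose broadly. Of 25 tested, 22 rose, 2 fell and 1 was not called, with a median of 3.56, or 88.0% rising beside 25.0% of all genes. Slc25a31, the ADP/ATP carrier of the testis, had 30.5 and 30.1 CPM in 2C::GFP+/SA and 0.663 and 0.411 CPM in mESC (5.68 ± 0.38, adjusted p = 1.64e-07). Mael, which acts in transposon silencing by piRNAs, had 35.1 and 41.2 CPM in 2C::GFP+/SA and 1.25 and 1.03 CPM in mESC (5.01 ± 0.26, adjusted p = 1.33e-08). Tex19.1, a germ cell gene that restrains retrotransposons, had 197.3 and 177.7 CPM in 2C::GFP+/SA and 16.5 and 14.3 CPM in mESC (3.6 ± 0.18, adjusted p = 1.19e-08). Tdrd12, a Tudor domain gene of the same pathway, fell by 1.39 ± 0.20 (adjusted p = 6.67e-05). Replicates of 2C::GFP+/SA did not lean either way in this list (median difference of 0.01 log2 units).

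Maternal oocyte genes gave mixed values. Of 19 listed, 12 were tested, of which 6 rose (50%, beside 25.0% of all genes), 2 fell and 4 were not called, with a median of 1.41. Fewer, 3, rose without replicate 1 of 2C::GFP+/SA or without either mESC library. The number called lower was 1 without replicate 1 and 0 without replicate 2 of 2C::GFP+/SA or without either mESC library. Nlrp14, a gene of oocytes and early embryos, had 9.28 and 6.86 CPM in 2C::GFP+/SA and 0.634 and 0.513 CPM in mESC (3.77 ± 0.36, adjusted p = 2.2e-06). Nobox, a homeobox factor of oocytes, had 1.23 and 1.08 CPM in 2C::GFP+/SA and 0.197 and 0.103 CPM in mESC (2.79 ± 0.74, adjusted p = 0.00733). The summed level of the whole list, tested or not, was 73.9 and 52.3 CPM in 2C::GFP+/SA and 79.1 and 72.7 CPM in mESC.

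Signalling genes were then read by pathway. In the LIF and IL6 pathway, both receptor chains and the main transducer fell. Il6st (gp130), the chain that LIF and IL6 receptors share, had 30.6 and 36.7 CPM in 2C::GFP+/SA and 161.8 and 167.1 CPM in mESC (-2.30 ± 0.14, adjusted p = 4.32e-08). Lifr, the LIF receptor, had 36.4 and 42.1 CPM in 2C::GFP+/SA and 130.5 and 129.2 CPM in mESC (-1.73 ± 0.17, adjusted p = 3.42e-06). Stat3, the transcription factor they activate, had 62.0 and 83.9 CPM in 2C::GFP+/SA and 184.5 and 178.8 CPM in mESC (-1.32 ± 0.15, adjusted p = 7.96e-06). Socs3, a direct STAT3 target and feedback inhibitor, fell by 0.71 ± 0.14 (adjusted p = 0.000847), and Jak1, the kinase on gp130, rose by 0.95 ± 0.14 (adjusted p = 7.39e-05). Of 15 genes, 2 rose (13.3%, beside 25.0% of all genes), 8 fell (53.3%, beside 20.1%) and 5 were not called (median -0.42). The number called lower was 5 without replicate 1 of mESC, and 1 was called higher without either mESC library or without replicate 1 of 2C::GFP+/SA.

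Canonical Wnt targets included some of the largest falls. Sp5, a direct target of beta-catenin, had 1.49 and 1.85 CPM in 2C::GFP+/SA and 97.8 and 84.5 CPM in mESC (-5.83 ± 0.24, adjusted p = 2.81e-09). T (Brachyury), the mesoderm factor, had 0.219 and 0.77 CPM in 2C::GFP+/SA and 12.8 and 36.0 CPM in mESC (-6.09 ± 0.70, adjusted p = 9.02e-05). Cdx1, a caudal homeobox factor, had 2.15 and 1.77 CPM in 2C::GFP+/SA and 20.7 and 33.8 CPM in mESC (-3.76 ± 0.35, adjusted p = 1.88e-06). Tcf7, a transcription factor of the pathway and itself a target, fell by 1.26 ± 0.15 (adjusted p = 1.53e-05), while Ccnd2, a D-type cyclin, rose by 1.94 ± 0.25 (adjusted p = 3.2e-05). Of 15 targets, 4 rose (26.7%, beside 25.0% of all genes), 8 fell (53.3%, beside 20.1%) and 3 were not called (median -0.98). The median ranged from -1.42 without replicate 2 of 2C::GFP+/SA to -0.91 without replicate 2 of mESC. CHIR activates this pathway, and whether mESC were grown with it is not known, so medium and group cannot be told apart for these genes. The promoter of Sp5 (RefSeq GRCm38.p6, chr2:70474673-70474922) is shown because it holds the TCF/LEF motif ATCAAAG, in capitals, on the opposite strand.
Sp5: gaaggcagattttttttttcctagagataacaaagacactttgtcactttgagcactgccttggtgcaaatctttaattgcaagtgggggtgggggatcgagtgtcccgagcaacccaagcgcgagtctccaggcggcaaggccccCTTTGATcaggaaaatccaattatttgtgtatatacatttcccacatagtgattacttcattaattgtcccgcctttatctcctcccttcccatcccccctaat
On either strand this motif occurs in 370 of 13220 tested promoters (2.80%), in 93 of 3226 called higher (2.88%) and in 81 of 3120 called lower (2.60%).

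Feedback and target genes of ERK, the kinase below FGF receptors, were mostly higher. Of 15 tested, 9 rose (60%, beside 25.0% of all genes), 1 fell and 5 were not called, with a median of 1.63. None was called lower without replicate 1 of 2C::GFP+/SA. Phlda1, a pleckstrin homology gene induced by ERK, had 9.05 and 8.86 CPM in 2C::GFP+/SA and 0.576 and 0.513 CPM in mESC (4.01 ± 0.41, adjusted p = 3.83e-06), with an antisense RNA over 33.0% of its exon bases. Dusp5, a phosphatase of nuclear ERK, had 14.6 and 18.6 CPM in 2C::GFP+/SA and 1.96 and 2.93 CPM in mESC (2.81 ± 0.28, adjusted p = 2.69e-06). Myc, the growth-promoting transcription factor, had 65.9 and 59.5 CPM in 2C::GFP+/SA and 23.2 and 17.0 CPM in mESC (1.63 ± 0.18, adjusted p = 1.06e-05). PD03 blocks this pathway in N2B27 medium, and its presence in the mESC cultures is likewise not known.

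The transcripts of the compounds' targets differed by less than 1 log2 unit. Dot1l had 223.0 and 269.6 CPM in 2C::GFP+/SA and 231.6 and 176.4 CPM in mESC, groups that overlapped (0.27 ± 0.15, adjusted p = 0.154). It was called higher when replicate 1 of 2C::GFP+/SA (0.43, adjusted p = 0.0413) or replicate 1 of mESC (0.50, adjusted p = 0.0318) was left out. Kdm5b had 779.5 and 739.9 CPM in 2C::GFP+/SA and 488.7 and 557.8 CPM in mESC, and rose by 0.54 ± 0.14 (adjusted p = 0.00574), a call lost without replicate 1 of mESC (0.0621). Among partners of DOT1L, Aff1 (AF4), a scaffold of the elongation complex, fell by 2.21 ± 0.14 (adjusted p = 5.67e-08), to 63.6 and 69.9 CPM in 2C::GFP+/SA, against 328.5 and 288.5 CPM in mESC. Mllt10 (AF10), the cofactor DOT1L needs for higher methylation states, fell by 0.82 ± 0.13 (adjusted p = 0.000145), and Men1 (menin) by 0.74 ± 0.14 (adjusted p = 0.000638). Of 13 genes, 3 rose (23.1%, beside 25.0% of all genes), 5 fell (38.5%, beside 20.1%) and 5 were not called. Without replicate 1 of 2C::GFP+/SA, 3 were called lower.

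Known repressors of the 2C-like state showed mixed and modest changes. Chaf1b, a subunit of the chromatin assembly factor CAF-1, had 57.2 and 48.7 CPM in 2C::GFP+/SA and 124.7 and 119.2 CPM in mESC (-1.20 ± 0.13, adjusted p = 9.33e-06). Cbx3 (HP1 gamma), a heterochromatin protein, fell by 0.98 ± 0.13 (adjusted p = 4.32e-05), and Lin28a, an RNA-binding protein also counted among pluripotency factors, by 0.99 ± 0.15 (adjusted p = 0.00015). Rif1, which silences Zscan4 in stem cells, had 1259 and 1004 CPM in 2C::GFP+/SA and 591.3 and 550.0 CPM in mESC (0.99 ± 0.14, adjusted p = 8.54e-05). Of 21 genes, 4 rose (19%, beside 25.0% of all genes), 7 fell (33.3%, beside 20.1%) and 10 were not called (median -0.02). The number called higher was 6 without replicate 1 and 2 without replicate 2 of mESC. In the DNA methylation machinery, Dnmt3l, the cofactor of de novo methyltransferases, rose by 1.76 ± 0.17 (adjusted p = 3.34e-06). Of the 10 genes there, 3 rose (30%, beside 25.0% of all genes), 2 fell (20%, beside 20.1%) and 5 were not called. Without replicate 1 of mESC none of these 10 was called lower, and without any other of the 4 libraries 1 was.

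Sterol and glycolysis genes were mostly lower. No member of the sterol synthesis list rose, 20 of 24 fell and 4 were not called, with a median of -0.94, or 83.3% falling beside 20.1% of all genes. Nsdhl, an enzyme of late cholesterol synthesis, fell by 1.75 ± 0.16 (adjusted p = 1.12e-06), and Insig1, a sensor of sterol levels, by 1.51 ± 0.13 (adjusted p = 8.51e-07). Scd1, a fatty acid desaturase outside the list, had 18.6 and 16.1 CPM in 2C::GFP+/SA and 445.5 and 445.6 CPM in mESC (-4.67 ± 0.17, adjusted p = 1.54e-09).

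In glycolysis, 1 of 17 genes rose, 12 fell (70.6%, beside 20.1% of all genes) and 4 were not called, with a median of -0.95. Tpi1, triosephosphate isomerase, had 125.7 and 143.7 CPM in 2C::GFP+/SA and 422.2 and 481.5 CPM in mESC (-1.75 ± 0.13, adjusted p = 2.41e-07). Hk2, a hexokinase, fell by 1.55 ± 0.12 (adjusted p = 3.74e-07), and Aldoa, an aldolase, by 1.49 ± 0.12 (adjusted p = 5.55e-07). Slc2a1 (GLUT1), the glucose transporter, rose by 0.61 ± 0.12 (adjusted p = 0.00111). In all, the list had 11199 and 10690.2 CPM in 2C::GFP+/SA and 15519 and 15949 CPM in mESC. Of 18 iron and hypoxia genes, 4 rose (22.2%, beside 25.0% of all genes), 2 fell (11.1%, beside 20.1%) and 12 were not called. P4ha2, a collagen prolyl hydroxylase subunit, stood apart with 429.9 and 183.6 CPM in 2C::GFP+/SA and 3.64 and 3.70 CPM in mESC (6.39 ± 0.62, adjusted p = 0.000824). Slc40a1, the iron exporter ferroportin, rose by 3.02 ± 0.47 (adjusted p = 0.000146), and Egln1, an oxygen-sensing prolyl hydroxylase, fell by 1.35 ± 0.22 (adjusted p = 0.000272).

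Stress pathways did not move as blocks. Among 21 p53 targets, 10 rose (47.6%, beside 25.0% of all genes), 2 fell and 9 were not called, with a median of 0.37. Without replicate 2 of 2C::GFP+/SA, 4 were called lower, and without replicate 1, 1 was. Plk3, a stress-induced kinase, had 201.0 and 158.5 CPM in 2C::GFP+/SA and 14.9 and 9.96 CPM in mESC (3.83 ± 0.22, adjusted p = 1.01e-07), and Mdm2, the ubiquitin ligase of p53, rose by 1.48 ± 0.15 (adjusted p = 4e-06). Cdkn1a (p21), the cell cycle inhibitor, went the other way, with 67.2 and 86.0 CPM in 2C::GFP+/SA and 223.1 and 297.4 CPM in mESC (-1.77 ± 0.17, adjusted p = 2.32e-06). In the integrated stress response, 4 of 18 rose (22.2%, beside 25.0% of all genes), 7 fell (38.9%, beside 20.1%) and 7 were not called. Psat1, an enzyme of serine synthesis, fell by 2.04 ± 0.15 (adjusted p = 1.84e-07), Trib3, a pseudokinase, by 1.42 ± 0.19 (adjusted p = 4.38e-05) and Asns, asparagine synthetase, by 1.31 ± 0.17 (adjusted p = 4.29e-05). Ppp1r15a (GADD34), which restores translation after stress, rose by 2.02 ± 0.18 (adjusted p = 1.33e-06). Of 13 tested interferon genes, 1 rose (7.69%, beside 25.0% of all genes), 1 fell (7.69%, beside 20.1%) and 11 were not called. None was called higher without replicate 1 of 2C::GFP+/SA or replicate 1 of mESC, and 2 were without replicate 2 of mESC. The number called lower was 3 without replicate 1 of 2C::GFP+/SA and 2 without replicate 2 of mESC. The gene that rose was Mx1, an antiviral GTPase, with 0.329 and 0.308 CPM in 2C::GFP+/SA, against 0.0146 and 0 CPM in mESC, where 2 counts give a ratio of 25.6 with a 95% counting interval from 6.55 to 219.6 (adjusted p = 0.0162). Its call was lost without replicate 1 of 2C::GFP+/SA (0.0679), without replicate 1 of mESC (0.119) and in the 3 fits of limma on TPM (0.0514 to 0.311). The gene that fell was Irf1, an interferon regulatory factor (-1.53 ± 0.29, adjusted p = 0.00136).

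Among 27 proliferation genes, 7 rose, 5 fell and 15 were not called, a share of 44.4% beside 45.1% of all genes. Cdc20, an activator of the anaphase-promoting complex, rose by 0.82 ± 0.14 (adjusted p = 0.000293), Cdk1, the mitotic kinase, by 0.67 ± 0.12 (adjusted p = 0.000561), and Cdk2, its S phase relative, fell by 1.24 ± 0.13 (adjusted p = 4.25e-06). The number called higher was 4 without replicate 2 of mESC and the number called lower 3 without replicate 1 of mESC.

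Several large falls lay outside the lists. Nkx1-2 (chromosome 7, 132594878 to 132599637), a homeobox gene of the tail end of the embryo, had 0.175 and 0.462 CPM in 2C::GFP+/SA and 66.4 and 82.4 CPM in mESC (-8.35 ± 0.58, adjusted p = 5.53e-06), the largest fall among genes with at least 10 CPM in mESC that are not predicted models. Pou2f3, a POU factor of epithelial cells, had 1.44 and 1.39 CPM in 2C::GFP+/SA and 46.4 and 56.1 CPM in mESC (-5.17 ± 0.37, adjusted p = 1.18e-06). For both genes the libraries of 2C::GFP+/SA lay far below the lower mESC library. Ccbe1, Wnt5b, Casq2, Sh2d4b and Misp also fell, by 4.84, 4.78, 4.75, 4.56 and 4.51 on the log2 scale, at adjusted p between 7.7e-07 and 4.05e-05.

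**Figure D5:**
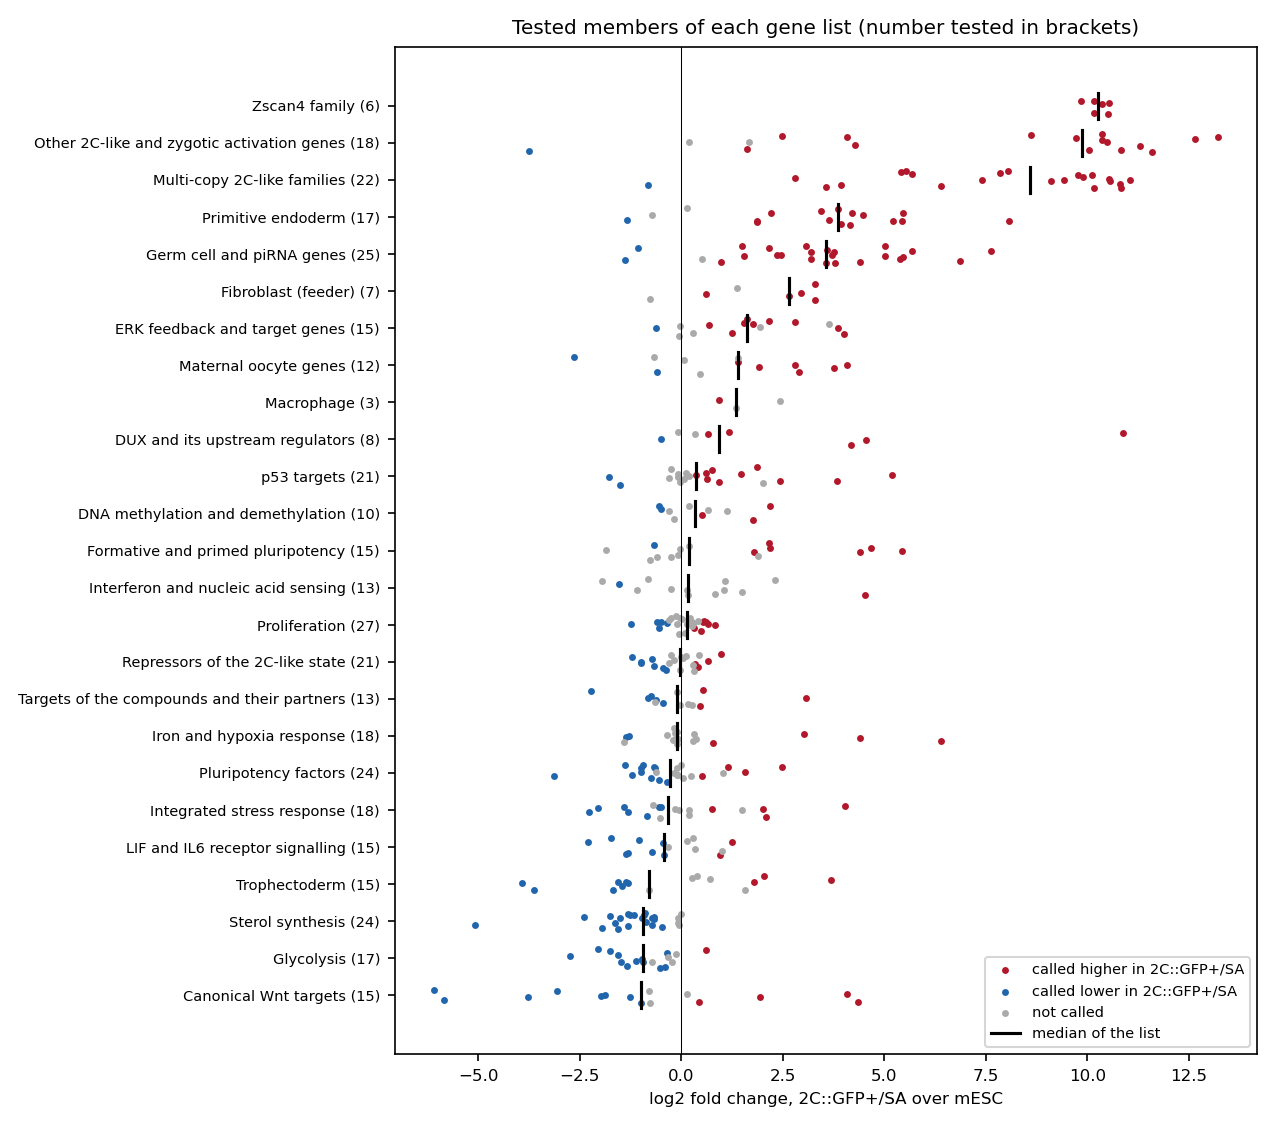
Log2 fold change (2C::GFP+/SA over mESC) of each tested member of the 25 gene lists, ordered by median, with the number tested in brackets, red for members called higher, blue for those called lower, grey for those not called and a black bar at the median; genes without a count in mESC stand at their lower bound. The 3 lists of the 2C-like state lie apart at the right, with the Zscan4 family at a median of 10.26, and the Wnt, glycolysis and sterol lists lie at the low end, with medians of -0.98, -0.95 and -0.94.

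Markers of feeder fibroblasts, which stem cell cultures can carry, were also compared. Of 10 listed, 7 were tested and 5 rose (71.4%, beside 25.0% of all genes), with a median of 2.65. The median was 1.61 without replicate 1 of mESC. Without replicate 1 of 2C::GFP+/SA or without replicate 1 of mESC, 3 rose, and 1 fell without replicate 2 of 2C::GFP+/SA. The summed level of the whole list was 240.8 and 151.3 CPM in 2C::GFP+/SA and 108.2 and 119.9 CPM in mESC. Col1a1, a collagen chain, had 6.49 and 6.55 CPM in 2C::GFP+/SA and 0.474 and 0.975 CPM in mESC (3.30 ± 0.47, adjusted p = 6.85e-05). Thy1 rose by 2.65 ± 0.26 (adjusted p = 2.39e-06) and Twist1 by 2.95 ± 0.39 (adjusted p = 4.04e-05). Col3a1, Lum and Postn, defining genes of fibroblasts, had 0 counts in replicate 2 of both groups and at most 10 counts in replicate 1. The part of such cells in the other results was not tested.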

How the data were processed

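Polyadenylated RNA of 8 libraries, 2 in each of 4 groups, was sequenced with a standard Illumina protocol, per the labels. The authors deposited a table of whole-number read counts per gene, not normalized, and a table of TPM (abundance per length of transcript) for the same columns. Per the submitters' processing notes, the builds were mm10 and GRCm38 and the tools included featureCounts 2.0.0, STAR 2.7.4a, Trim Galore 0.6.5 and FastQC 0.11.9, with Cell Ranger named without a version. Not given in the sources used here were the annotation release, the strand setting and the handling of multi-mapping reads. Column names match the labels of 3 groups, and the KOSR columns, which match none, were assigned to untreated 2C::GFP+ as the only group left. All 8 columns were used (0 left out). Totipotent-like stem cells, which the design text names, are not analysed here.

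Symbols and positions came from GENCODE M21 (GRCm38), which holds 55480 of the 55573 identifiers. Of these genes 19516 have no count. The filterByExpr function kept 20608 genes. In edgeR 4.0.16 (R 4.3.3) all 8 libraries entered a model of group means (TMM factors, robust quasi-likelihood, 4 residual degrees of freedom), with two-sided tests, Benjamini-Hochberg adjustment and calls under 0.05. The common biological coefficient of variation came to 20.6%. The procedure was checked on simulated counts. SE was derived from the log2 fold change and the F statistic. A gene with 0 counts in mESC is compared with 3 counts over that group, and with 1 to 3 counts the ratio has an exact 95% interval. Shared sequence is the percentage of 31-base words of a gene's transcripts found in another gene. The 25 lists hold 424 entries for 415 genes. Lists, members and the naming rule were chosen with earlier results of these data known. Named genes are the 12 largest rises and falls with at least 10 CPM in the higher group and groups that do not overlap, the 10 highest genes without a mESC count, 5 predicted models, up to 3 called members of a list in the direction most of them took and 1 against it, by adjusted p, and a fixed set of well-known markers. Some genes named by this rule are not reported here. Alternatives were DESeq2 1.42.0, other filters and size factors, limma 3.58.1 on log2(TPM + 1) and log2(TPM + 0.1), fewer libraries and a replicate block.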

Additional observations from a re-analysis of the deposited data

How the results depend on the processing

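The counts of genes called were recomputed under 18 alternatives. Genes called higher ranged from 3216 to 5743 and genes called lower from 2748 to 4634. The lowest came from limma on log2(TPM + 1) without a filter (5964 in all, 3216 higher and 2748 lower), and the other alternatives stayed within 1.5 times the reported counts. Leaving out 1 library at a time gave 6630 to 9648 calls, 3784 to 5386 higher and 2846 to 4264 lower. DESeq2 called 5372 higher and 3570 lower. The genes without a mESC count that were called numbered 242 with a filter of at least 1 CPM in 2 libraries and 1328 without a filter, because other numbers of genes were tested, and 403 to 1219 when 1 library was left out. The median of all genes was at most 0.12 (DESeq2 and RLE size factors). Of 128 named genes called, 110 kept call and direction in every alternative run. Nanog, which was not called, changed sign under limma on TPM (-0.03 in each of 3 settings) and ranged from -0.21 to 0.27 when 1 library was left out, the lowest without replicate 1 and the highest without replicate 2 of 2C::GFP+/SA. With a replicate block 10060 genes were called, 5426 higher and 4634 lower. Deviations of same-numbered 2C::GFP+/SA and mESC libraries correlated at 0.033, and those of the other 5 pairs of groups at 0.116 to 0.248. Since 1 pair was not over 0.1, the numbers were not taken to pair the libraries, and depth goes with the number in both groups compared. The cause of these differences was not tested. Replicate 2 of 2C::GFP+/SA, with 12299931 counts, limits what can be seen of genes under about 0.231 CPM (3 counts).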

Other observations

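Some of the 797 genes without a mESC count that rose in 2C::GFP+/SA (3.87% of tested genes) lay in local groups, with 108 of them in 18 windows of 1 megabase that held at least 4. On GRCm38 chromosome 7, 16 of 25 tested genes in 1 megabase window belonged to them, from 15056199 to 15879968, among them Obox1, Obox2, Obox3 and a row of Obox pseudogenes. The next window below held 8 of 12, including Obox7. In each such pair of numbers, the second counts all tested genes of the 1 megabase window. The positions given span only the genes without a mESC count that rose. On chromosome 12, 10 of 34 in a window belonged to them, spanning 88040682 to 88270614, all of them predicted models. In the window below, 7 of 42 did, spanning 87537905 to 87973757, including Oog1, an oocyte gene. On chromosome 3, 8 of 20 in a window belonged to them, spanning 93319749 to 93943543. They included Tdpoz1 and Tdpoz2, 2 genes of the family of POZ domain genes described above. On chromosome 5, 7 of 9 in 1 window (spanning 15028950 to 15714596) and 6 of 8 in another (26007027 to 26493314) belonged to them. Both windows held members of the Speer4 family, spermatogenesis-associated glutamate-rich genes. On chromosome 19, 6 of 15 in a window belonged to them, spanning 12086746 to 12232596. All 6 were olfactory receptor genes, such as Olfr1426 and Olfr76. These windows were chosen after their counts were seen. The Obox and Tdpoz genes named here share transcript words with other genes, so reads may be split among copies. Shared sequence was not assessed for Oog1, the Speer4 genes and the olfactory receptor genes of these windows.

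The share of genes called is given here by annotation class, as a description with no test between classes. Of 196 tested unprocessed pseudogenes, copies left by gene duplication, 119 rose (60.7%, beside 25.0% of all genes) and 8 fell, with a fitted median of 5.17. Of the 196, 69 had no count in mESC, and 67 of these were among the 119. The filter fixes part of these counts. Of 1424 processed pseudogenes, 329 rose (23.1%) and 26 fell, and of 1003 long intergenic noncoding RNAs, 303 rose (30.2%) and 91 fell. Protein-coding genes were near balance, with 3955 of 15718 higher (25.2%) and 3824 lower (24.3%). Predicted models rose about as often as all genes, with 1326 of 5042 higher (26.3%, beside 25.0%). Fewer fell, with 362 lower (7.18%, beside 20.1% of all genes), and 453 of the 5042 had no count in mESC.

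The Y chromosome gave unlike values for neighbouring genes, named here after their values were seen. Usp9y, a deubiquitinase gene, had 54.1 and 18.6 CPM in 2C::GFP+/SA, against 0.291 and 0.513 CPM in mESC (log2 fold change 6.73 ± 0.61 SE, edgeR adjusted p = 3.39e-05), with 0.2% of its transcript words found in another gene. Kdm5d, a histone demethylase gene, had 8.81 and 6.55 CPM in 2C::GFP+/SA, against 0.918 and 0.924 CPM in mESC (3.07 ± 0.38, edgeR adjusted p = 2.37e-05). Eif2s3y, a translation factor gene nearby, had 100.8 and 75.6 CPM in 2C::GFP+/SA and 79.8 and 86.0 CPM in mESC (0.10 ± 0.16, edgeR adjusted p = 0.654).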
